A study of Mus musculus with 35 samples.

Results

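The genes described here are 10 genes that mark tissue macrophages (Csf1r, Adgre1, Mrc1, Cx3cr1, C1qa, C1qb, C1qc, Tyrobp, Fcer1g and Lyz2), taken by symbol from a fixed list and joined by Ensembl identifier to every library, 10 of the 31053 genes counted. They were followed in 35 RNA libraries from whole kidneys of C57BL/6 mice killed at postnatal day 2. The study crossed mice that lack Flcn (folliculin) in kidney epithelium with mice that lack a transcription factor held in check by folliculin, Tfeb or Tfe3, and compared each mutant with controls of its own cross. The Flcn cross had 5 Flcn KO (Flcn flox/flox; Ksp-cre+) and 5 control kidneys, the Flcn/Tfeb cross had 4 Flcn/Tfeb DKO (Ksp-cre+ with floxed alleles of both Flcn and Tfeb, each flox/flox) and 3 control kidneys, and the Flcn/Tfe3 cross had 10 Flcn/Tfe3 DKO (Flcn flox/flox; Ksp-cre+; Tfe3-/-) and 8 control kidneys. The labels call the controls only control of their cross. The study's text describes control mice of this age as Flcn flox/flox, and whether controls of the other crosses carried Tfeb or Tfe3 alleles is not given in the sources used here. Ksp-cre is driven by the promoter of cadherin 16 and deletes in collecting ducts, distal tubules and thick ascending limbs, not in macrophages, whereas the Tfe3-/- allele is a null allele of the whole animal and is therefore also carried by the macrophages of the Flcn/Tfe3 DKO kidneys. The question put to the data was whether kidneys of any mutant differed from their controls in the level of macrophage RNA at this age.

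Macrophages of the newborn kidney lie between the tubules and around vessels. They depend on the receptor encoded by Csf1r, which binds CSF1 and IL-34, are placed by fractalkine acting on CX3CR1, clear dying cells and debris through scavenger and complement proteins, and signal through receptors that have no signalling tail of their own and borrow that of TYROBP or FCER1G. None of the 10 genes is unique to macrophages. Lyz2, Tyrobp and Fcer1g are also expressed by neutrophils and monocytes, Fcer1g by mast cells, Cx3cr1 by some monocytes, and Mrc1 by lymphatic and sinusoidal endothelium. In RNA from whole tissue, fewer cells of a type and less RNA per cell cannot be told apart.

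The libraries were 3′ end libraries with 1652649 to 4239356 counts on genes, and levels are given in CPM, counts scaled to a common library size. The limit that a count of 0 allows (3 counts) lay between 0.708 and 1.82 CPM. The Flcn/Tfe3 libraries came as 2 tables, a set named in vivo (set B, 3 controls and 6 DKO) and a set named CDM (set C, 5 controls and 4 DKO), and the 17 libraries of the other crosses formed set A. Mitochondrial genes took 4.47 to 11.9% of counts in set A, 1.79 to 3.56% in set B and 2.72 to 7.80% in set C. Flcn control replicates 4 and 5 and Flcn/Tfeb control replicate 3 were the set A libraries with under 12% of reads on no gene (9.06 to 10.96%). They are called below the libraries with few reads on no gene, and the other 14 held 12.9 to 19.9%. The limit of 12% does not lie at a clear break. Flcn KO replicates 5 and 2 followed at 12.9 and 13.3%, and the next library, Flcn control replicate 3, stood at 16.5%. Kidney genes such as Umod and Slc12a1 were present throughout, with 1958 to 3142 CPM summed over 8 epithelial markers. The targeted genes did not check the labels: Flcn (log2 fold change 0.09, 0.11 and 0.20 in the 3 crosses), Tfeb in Flcn/Tfeb DKO (-0.73 ± 0.38 SE, adjusted p = 0.80) and Tfe3 in Flcn/Tfe3 DKO (-0.09, adjusted p = 0.94) did not pass the test in edgeR. A 3′ tag outside the deleted exons checks nothing, and which exons are deleted is not given in the sources used here, so the groups are named as labelled. Tfe3 had a median of 18.4 CPM in Flcn/Tfe3 controls and 18.3 CPM in DKO, beside 31.9 CPM in Flcn controls and 36.8 CPM in Flcn/Tfeb controls, libraries of another set.

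Of the 10 members, 6 matched an entry in a table of RefSeq promoters (GRCm38.p6). The 250 bases before the RefSeq transcription start were searched on both strands for GAGGAA, a core bound by PU.1, the factor encoded by Spi1 that macrophage identity rests on, and for CACGTG, the core of the elements bound by TFEB and TFE3. Mrc1 held GAGGAA at 3 positions, C1qb and C1qc at 1 position each, and the windows of Cx3cr1, Fcer1g and Lyz2 did not hold these letters; 23.3% of all 32851 windows held it at least once. CACGTG was in none of the 6 windows and in 6.02% of all windows. C1qb is shown because its level separated all libraries of sets B and C (below), and Mrc1 because, among controls alone, it was the only member with a difference above 0 between set C and set B, which did not pass the test; GAGGAA on either strand is in capitals, and a match is a description of letters, not a binding site. RefSeq starts differ from those of the GENCODE M21 gene models given below, so that the Mrc1 window ends at 14229413, just inside a gene model that starts at 14229392.
C1qb, chr4:136886201-136886450, minus strand: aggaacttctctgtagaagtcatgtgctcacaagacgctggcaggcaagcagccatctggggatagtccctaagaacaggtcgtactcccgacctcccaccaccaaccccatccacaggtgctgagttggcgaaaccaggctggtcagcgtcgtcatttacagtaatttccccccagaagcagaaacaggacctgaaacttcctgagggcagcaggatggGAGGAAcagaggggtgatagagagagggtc
Mrc1, chr2:14229164-14229413, plus strand: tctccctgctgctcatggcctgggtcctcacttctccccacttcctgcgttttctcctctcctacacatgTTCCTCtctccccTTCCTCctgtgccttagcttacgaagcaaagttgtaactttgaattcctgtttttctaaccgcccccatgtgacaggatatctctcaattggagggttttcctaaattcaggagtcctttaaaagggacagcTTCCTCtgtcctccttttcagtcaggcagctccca

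None of the members was called different between mutant and control in any of the 3 crosses, at an adjusted p under 0.05 in edgeR's quasi-likelihood test over all genes. In the Flcn cross 0 of the 9 members tested were called, where 0.52% of 11932 genes tested were called, and 1 member had an unadjusted p under 0.05, where 9.07% of all genes had one. In the Flcn/Tfeb cross 0 of 9 were called, where 0% of 12469 genes were called (5.07% at an unadjusted p under 0.05, 1 member among them). In the Flcn/Tfe3 cross 0 of 10 were called, where 0.385% of 12456 genes were called (7.15% at an unadjusted p under 0.05, no member among them). The median log2 fold change of the members tested was 0.04, 0.14 and 0.01 in the 3 crosses, beside -0.01, -0.02 and 0.01 over all genes tested. With scaling factors from each cross alone, mutant and control libraries overlapped for every member tested in every cross (on the CPM over all 35 libraries printed here C1qa in the Flcn/Tfeb cross did not), while on the per-cross scaling groups that did not overlap were found for 2.38% of all genes with Flcn KO, 5.65% with Flcn/Tfeb DKO and 0.128% with Flcn/Tfe3 DKO. DESeq2 also called 0 members in each cross. Adgre1 had too few counts to be tested in the Flcn and Flcn/Tfeb crosses.

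**Figure D1:**
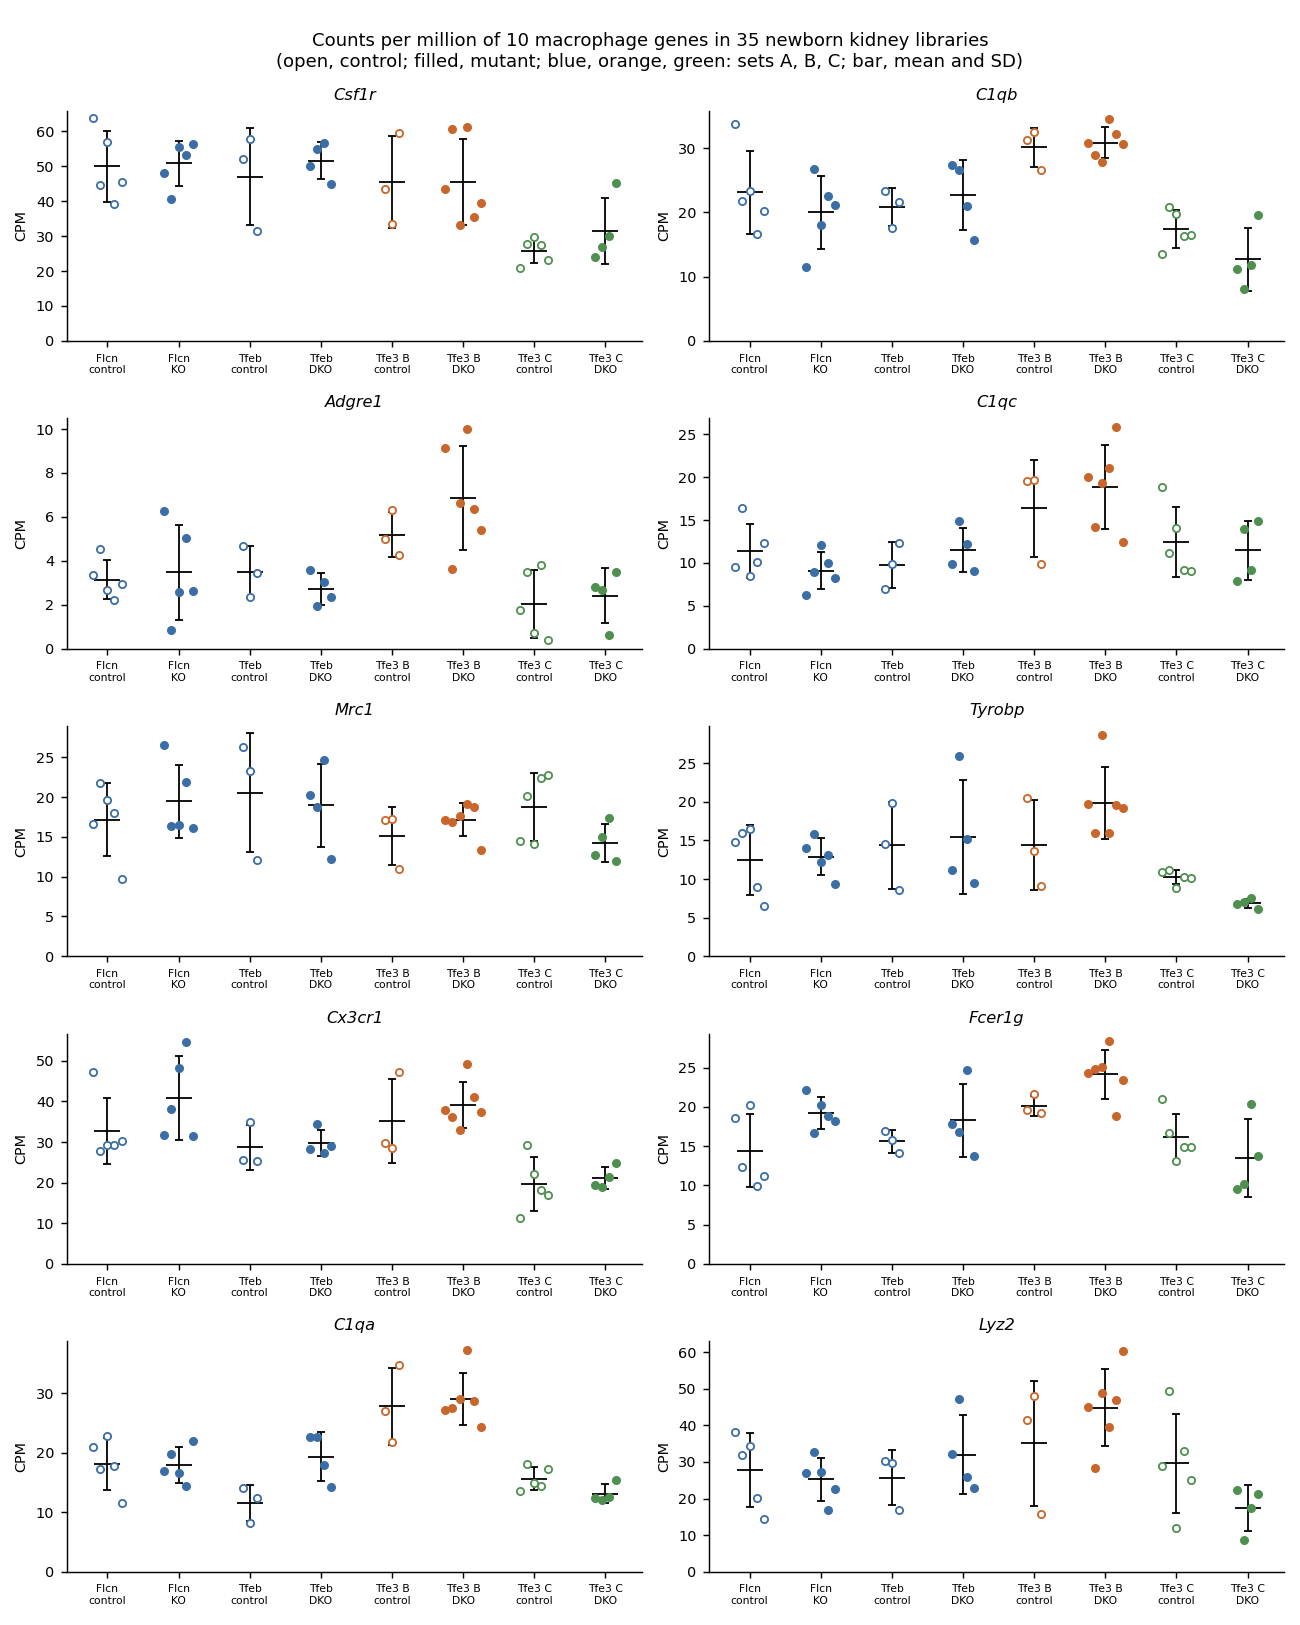
Level of each gene in CPM (vertical axis, linear from 0) in each library, by group and set; open circles are controls, filled circles mutants, and the bar gives mean and SD. Within each cross the mutant and control libraries overlap for each gene but C1qa in the Flcn/Tfeb cross (controls up to 14.01, DKO from 14.16 CPM), while all 9 set B libraries lie above all 9 set C libraries for C1qa and C1qb and the sets overlap for the other 8 genes.

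**Figure D2:**
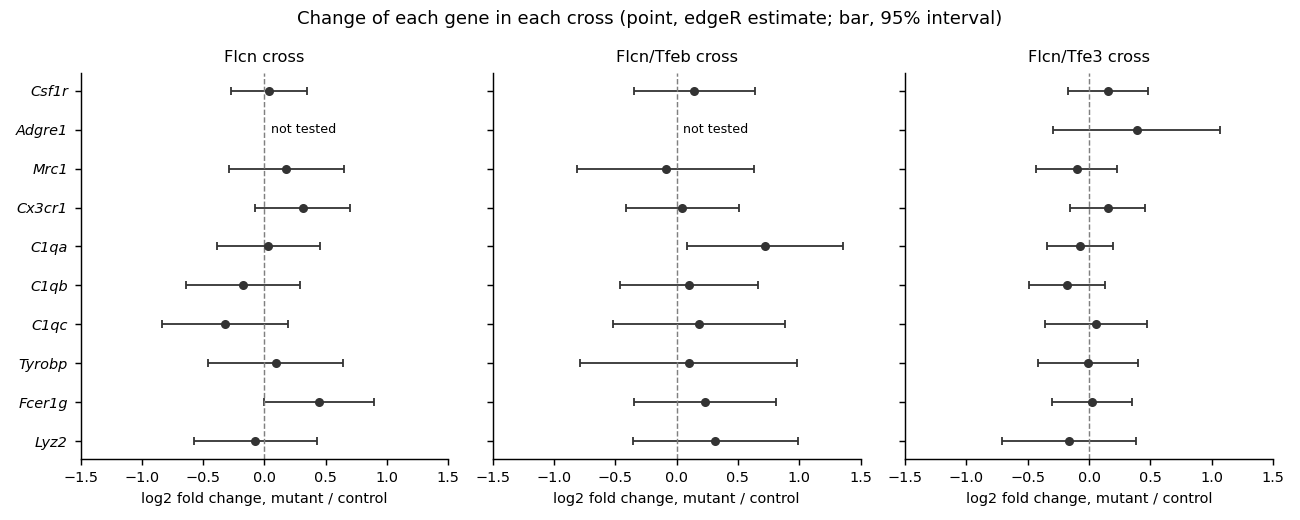
Log2 fold change of each gene, mutant against control (horizontal axis), in each cross, with the 95% interval from edgeR; Adgre1 was not tested in the Flcn and Flcn/Tfeb crosses. The points lie between -0.32 and 0.72, and the intervals that lie wholly above 0 are those of Fcer1g in the Flcn cross and C1qa in the Flcn/Tfeb cross, neither of which passed the adjusted test.

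Csf1r, the receptor for CSF1 and IL-34 on which survival of the cells depends (chromosome 18, 61100598 to 61132149, plus strand, mm10), had the highest level of the members in set A. In the 5 Flcn controls it stood at 63.8, 44.5, 56.8, 39.1 and 45.5 CPM, and in the 5 Flcn KO kidneys at 48.2, 40.7, 55.6, 53.3 and 56.3 CPM. The KO values lay within the range of the controls. The fold change was 1.03 with a 95% interval of 0.827 to 1.27 (adjusted p = 0.96), so a difference larger than these bounds in either direction lies outside the interval. In the Flcn/Tfeb cross the controls stood at 52.0, 57.8 and 31.3 CPM and the DKO kidneys at 50.02, 55.0, 56.7 and 44.8 CPM, the low control being the library with few reads on no gene, and the fold change was 1.10 (0.783 to 1.55). In the Flcn/Tfe3 cross the 8 controls ran from 21.003 to 59.5 CPM with a median of 28.7 and the 10 DKO kidneys from 23.9 to 61.2 CPM with a median of 37.5. These medians pool sets B and C, which differed in level and were mixed unequally in the groups: Csf1r averaged 45.5 ± 13.1 CPM in controls and 45.5 ± 12.4 in DKO of set B, and 25.8 ± 3.58 and 31.5 ± 9.50 in set C. The fold change with the set as a term was 1.11 (0.887 to 1.39). The 3′ end of Csf1r overlaps Hmgxb3 on the opposite strand, and whether the counting used strand is not given in the sources used here, so reads of these 2 genes may not be told apart.

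The ligands of this receptor were far lower than the receptor. Csf1 averaged 6.14 ± 0.991 CPM (SD, n = 5) in Flcn controls and 4.91 ± 1.94 (n = 5) in Flcn KO, and Il34, made largely by epithelia, 9.85 ± 2.58 and 9.10 ± 1.43. For the Flcn/Tfeb cross Csf1 averaged 7.47 ± 2.31 CPM (n = 3) in controls and 3.93 ± 0.485 (n = 4) in DKO, where the 3 controls (4.89 to 9.34) lay above the 4 DKO kidneys (3.24 to 4.33); its log2 fold change of -0.88 ± 0.39 (SE) had an unadjusted p of 0.048 and an adjusted p of 0.80 in edgeR. With Flcn/Tfe3 DKO, Csf1 had a log2 fold change of 0.30 ± 0.26 and Il34 one of 0.08 ± 0.30. Neither ligand was called in a cross.

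Cx3cr1, the fractalkine receptor that marks many resident macrophages (chromosome 9, 119901616 to 120069879, minus strand), was at 47.2, 27.7, 29.2, 29.2 and 30.2 CPM in Flcn controls and at 31.8, 38.2, 48.2, 54.6 and 31.4 CPM in Flcn KO. Every KO kidney was above 4 of the 5 controls, and control replicate 1 lay among the highest KO kidneys. The fold change was 1.24 (0.950 to 1.62, adjusted p = 0.63). Flcn/Tfeb controls stood at 25.7, 35.02 and 25.3 CPM and DKO at 28.2, 34.3, 27.4 and 29.1 CPM, a fold change of 1.03 (0.750 to 1.42). Flcn/Tfe3 controls ran from 11.4 to 47.2 CPM (median 25.4) and DKO from 19.0 to 49.2 (median 34.5), again over both sets. Within set B the means were 35.2 ± 10.4 and 39.1 ± 5.64 CPM and within set C 19.6 ± 6.63 and 21.1 ± 2.64 CPM, and the fold change with the set as a term was 1.11 (0.9004 to 1.38). Its ligand Cx3cl1 averaged 11.1 ± 1.64 and 10.1 ± 1.68 CPM in Flcn control and KO kidneys, 10.7 ± 6.97 and 6.64 ± 3.29 in Flcn/Tfeb control and DKO kidneys, and 12.7 ± 2.98 and 15.6 ± 3.84 in Flcn/Tfe3 control and DKO kidneys, and was called in none. The annotated Cx3cr1 model spans several neighbouring genes, Wdr48 and Gorasp1 among them, so part of its counts may be shared with these.

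C1qa, C1qb and C1qc encode the 3 chains of C1q, the recognition unit of the classical complement pathway, which macrophages secrete and which tags dying cells for uptake. They lie side by side on chromosome 4, minus strand, at 136895917 to 136898803 (C1qa), 136880129 to 136886187 (C1qb) and 136889804 to 136893065 (C1qc). In Flcn controls C1qa stood at 20.96, 17.3, 22.8, 17.8 and 11.4 CPM and in Flcn KO at 16.9, 19.8, 16.6, 14.4 and 22.0 CPM, with the KO kidneys inside the control range and a fold change of 1.02 (0.766 to 1.37). In the Flcn/Tfeb cross C1qa was at 14.01, 8.17 and 12.4 CPM in controls and at 22.6, 22.7, 17.9 and 14.2 CPM in DKO, so that the lowest DKO kidney was just above the highest control on this scale, while with scaling factors from that cross alone the groups overlapped. The fold change was 1.64 (1.06 to 2.56), with an unadjusted p of 0.031 and an adjusted p of 0.80. The same contrast gave 1.07 (0.725 to 1.59) for C1qb and 1.13 (0.696 to 1.85) for C1qc, genes whose products join C1QA in 1 complex.

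The difference between crosses was tested as itself. The C1qa effect in the Flcn/Tfe3 cross less that in the Flcn/Tfeb cross was -0.81 ± 0.27 (SE) on the log2 scale, with an unadjusted p of 0.0062 and an adjusted p of 0.30, and the Flcn/Tfeb effect less the Flcn effect was 0.69 ± 0.34 (adjusted p = 0.82). Over the 3 such contrasts 0 members were called, where 0.0153% (Flcn/Tfeb less Flcn), 0% (Flcn/Tfe3 less Flcn) and 0.022% (Flcn/Tfe3 less Flcn/Tfeb) of all genes were. At an unadjusted p under 0.05 these contrasts held 5.95%, 7.4% and 12.2% of all genes, and C1qa in the last was the only member. In the Flcn/Tfe3 cross itself C1qa had a fold change of 0.952 (0.790 to 1.15), C1qb 0.882 (0.712 to 1.09) and C1qc 1.04 (0.780 to 1.39). In the Flcn cross C1qb stood at 33.8, 21.8, 23.4, 16.6 and 20.3 CPM in controls and 11.6, 26.7, 18.0, 22.6 and 21.1 CPM in KO, a fold change of 0.886 (0.641 to 1.22), and C1qc had 0.8005 (0.561 to 1.14).

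Over the 35 libraries C1qa gave 35.4 ± 5.59% (SD), C1qb 40.8 ± 5.93% and C1qc 23.8 ± 6.36% of the counts on the 3 chains. The share of C1qa was lowest in Flcn/Tfeb controls, at 27.1 ± 4.33% (n = 3, 23.0 to 31.6%), and 36.1 ± 1.21% (n = 4, 35.1 to 37.7%) in Flcn/Tfeb DKO kidneys, while group means elsewhere were 34.3 to 38.7%. The 3 controls held 14 to 43 counts of C1qa, and the part of counting error in the spread of their shares was not tested.

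Tyrobp, the adaptor also called DAP12 that signals for TREM2 and related receptors (chromosome 7, 30413760 to 30417585, plus strand), was at 14.8, 15.9, 16.5, 8.91 and 6.46 CPM in Flcn controls and at 13.98, 15.8, 12.1, 13.2 and 9.39 CPM in Flcn KO. The 2 low controls were replicates 4 and 5, the libraries with few reads on no gene. The fold change was 1.07 (0.726 to 1.56), a log2 fold change of 0.09 that was -0.29 without both, -0.021 without control replicate 4, -0.091 without control replicate 5 and -0.014 without KO replicate 2. Flcn/Tfeb controls stood at 14.6, 19.8 and 8.62 CPM and DKO at 11.1, 25.9, 15.2 and 9.44 CPM, a fold change of 1.07 (0.580 to 1.98). The Flcn/Tfe3 cross gave a fold change of 0.995 (0.751 to 1.32). Trem2 itself, chosen for mention after its values were seen, had 0 to 16 counts per library.

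Fcer1g, the gamma chain shared by activating Fc receptors (chromosome 1, 171229572 to 171234365, minus strand), was the member with the lowest p in the Flcn cross. Controls stood at 18.6, 12.3, 20.2, 9.90 and 11.2 CPM and KO kidneys at 22.2, 16.6, 20.2, 18.8 and 18.2 CPM. All 5 KO kidneys were above 3 of the 5 controls, and controls 1 and 3 lay within the KO range. The fold change was 1.37 (1.0005 to 1.86), with an unadjusted p of 0.050 and an adjusted p of 0.55. Its log2 fold change of 0.45 was 0.17 (adjusted p = 0.92) without control replicates 4 and 5. Fcgr3, an Fc receptor that needs this chain, was at 5.89 ± 2.72 CPM in Flcn controls and 8.80 ± 1.66 in KO (log2 fold change 0.61 ± 0.30 SE, adjusted p = 0.56) and at 6.30 ± 2.83 CPM in Flcn/Tfeb controls and 12.8 ± 2.17 in DKO (1.05 ± 0.37 SE, adjusted p = 0.80); it was chosen for mention after its values were seen, and had the highest log2 fold change of its list, the ligands and partners of the members, in both crosses. Of that list 2 of 9 genes tested were above 0 in the Flcn cross (median -0.12) and 5 of 10 in the Flcn/Tfeb cross (median -0.04), none called. For Fcer1g the Flcn/Tfeb cross gave controls at 16.9, 15.8 and 14.1 and DKO at 17.9, 16.8, 24.7 and 13.8 CPM (fold change 1.18, 0.787 to 1.76), and the Flcn/Tfe3 cross a fold change of 1.02 (0.809 to 1.28).

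Among the surface markers, Adgre1, which encodes F4/80 (chromosome 17, 57358691 to 57483527, plus strand), was the lowest of the members in every group, with 1 to 47 counts per library. It ran from 0.861 to 6.27 CPM in set A and could be tested only in the Flcn/Tfe3 cross, where the fold change was 1.31 (0.815 to 2.10). Mrc1, the mannose receptor CD206 that takes up glycoproteins (chromosome 2, 14229392 to 14332057, plus strand), was at 16.7, 21.8, 19.6, 18.1 and 9.69 CPM in Flcn controls and at 26.5, 16.4, 16.6, 21.9 and 16.1 CPM in Flcn KO. The groups overlapped, and the fold change was 1.13 (0.817 to 1.56). It was 0.940 (0.570 to 1.55) in the Flcn/Tfeb cross and 0.932 (0.742 to 1.17) in the Flcn/Tfe3 cross.

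Lyz2, which encodes the lysozyme that macrophages, monocytes and neutrophils use against bacterial walls (chromosome 10, 117277331 to 117282321, minus strand), was at 38.1, 31.8, 34.5, 20.05 and 14.4 CPM in Flcn controls and at 27.0, 32.7, 27.2, 16.9 and 22.6 CPM in Flcn KO. As for Tyrobp, the lowest controls were replicates 4 and 5. The fold change was 0.949 (0.670 to 1.34), and it was 1.24 (0.779 to 1.99) in the Flcn/Tfeb cross and 0.892 (0.611 to 1.30) in the Flcn/Tfe3 cross. Lyz2 varied most against counting error, with a coefficient of variation within group and set of 34.6% where counting alone gives 11.7%. For the other members the observed coefficient was 1.27 (C1qa) to 2.30 (Csf1r) times the counting value, and for Adgre1 47.7% against 35.6%.

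In order of mean level over the 35 libraries the members stood at 43.3 ± 12.7 CPM for Csf1r (SD), 31.3 ± 9.93 for Cx3cr1, 30.4 ± 12.4 for Lyz2, 22.3 ± 7.08 for C1qb, 19.4 ± 6.83 for C1qa, 17.9 ± 4.74 for Fcer1g, 17.7 ± 4.28 for Mrc1, 13.5 ± 5.45 for Tyrobp, 12.8 ± 4.71 for C1qc and 3.74 ± 2.19 for Adgre1. These are CPM of 3′ tags, of which a transcript gives about 1 whatever its length, so they are not divided by length. Cx3cr1 and Lyz2, Fcer1g and Mrc1, and Tyrobp and C1qc differed by far less than their spread, and Adgre1 was lowest in each set. The order among the highest members differed by set. Csf1r averaged 50.1 ± 8.24 CPM, Cx3cr1 33.7 ± 8.56 and Lyz2 27.7 ± 8.41 in set A (n = 17). In set B (n = 9) Csf1r averaged 45.5 ± 11.8 CPM, Lyz2 41.6 ± 12.9 and Cx3cr1 37.8 ± 7.12, and in set C (n = 9) Csf1r 28.3 ± 7.02, Lyz2 24.2 ± 12.2 and Cx3cr1 20.3 ± 5.03, differences of less than 1 SD between neighbours. The lower part of the order differed too. Mrc1 was next after Cx3cr1 in set C (16.8 ± 4.11 CPM), less than 1 SD above C1qb at 15.3 ± 4.40. In set B Mrc1 was next to last (16.5 ± 2.65), less than 1 SD below Tyrobp at 18.05 ± 5.43. Its distance from C1qb in set B (30.6 ± 2.44) was more than 1 SD, with Mrc1 at 10.9 to 19.2 CPM and C1qb at 26.7 to 34.5 CPM.

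The level of some members also differed between sets B and C. Summed over the 10 members, libraries of set B held 237 to 255 CPM in controls (n = 3) and 257 to 316 CPM in DKO (n = 6), and those of set C 149 to 208 CPM in controls (n = 5) and 123 to 177 CPM in DKO (n = 4), with no overlap between the sets. For C1qa and C1qb each of the 9 set B libraries was above each of the 9 set C libraries, 2 of the 10 members, where 1.76% of 13728 genes had all of set B above and 2.08% all of set C above. Among controls alone, 4 of the 10 members were called lower in set C than in set B, where 6.41% of 12456 genes were called lower and 6.45% higher, 12.9% in all and 28.3% at an unadjusted p under 0.05 (edgeR, effects fitted per set, a contrast added after the data were seen).

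The 4 members lower in controls of set C were C1qa, with a log2 difference of -0.84 ± 0.19 (SE, adjusted p = 0.0063), Cx3cr1 with -0.87 ± 0.22 (adjusted p = 0.012), C1qb with -0.80 ± 0.21 (adjusted p = 0.013) and Csf1r with -0.82 ± 0.23 (adjusted p = 0.022). In controls C1qa stood at 27.0, 21.8 and 34.7 CPM in set B and at 13.6, 18.1, 14.8, 14.4 and 17.2 CPM in set C. Mrc1 was the only member with a difference above 0 (0.30 ± 0.23, adjusted p = 0.40). The calls rested on few libraries, and the count over all genes, 1603 of 12456 with all libraries, fell with them. Without Flcn/Tfe3 control replicate 1, 2 members were called (Cx3cr1 and C1qa), where 793 of 12533 genes were. Without control replicate 3, 1 member was called (C1qb), where 674 of 12554 genes were. With the mitochondrial share as a covariate, 2 members were called (Cx3cr1 and C1qa), where 142 of 12456 genes were. DESeq2 called 5 members (Adgre1 added) and library totals 6 (Adgre1 and Tyrobp added), and the shares of all genes called there are not given here. In the first fit, on all libraries, 3 of 4 tested genes of MHC class II (H2-Aa, H2-Eb1 and Cd74) were also called lower in controls of set C. Macrophages and dendritic cells use MHC class II to present antigen. Of the wider lists, 1 of 17 other macrophage genes (Laptm5, -0.91 ± 0.26), 0 of 10 ligands and partners and 0 of 4 resident macrophage genes were called, while Plac8 of the monocyte list was called higher (1.33 ± 0.33, adjusted p = 0.010) and Six2 of the kidney list lower (-1.32 ± 0.34, adjusted p = 0.013). What differs between the 2 sets in handling is not given in the sources used here, and the set cannot be told apart from it.

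Within set B all 10 members had a log2 fold change above 0 in DKO against control (0.01 to 0.46, median 0.19) and none was called, where 0.0963% of all genes were called (6.21% at an unadjusted p under 0.05, no member among them). Within set C 7 of 10 were below 0 (-0.72 to 0.35, median -0.23) and none was called, where 4.73% of all genes were called, 3.37% lower and 1.36% higher (23.2% at an unadjusted p under 0.05, Tyrobp and Lyz2 among them). Tyrobp in set C stood at 10.9, 11.1, 8.82, 10.3 and 10.2 CPM in the 5 controls and at 6.76, 6.96, 7.60 and 6.13 CPM in the 4 DKO kidneys. The groups did not overlap, as for 2.28% of all genes in that direction, and the fold change of 0.683 had an unadjusted p of 0.044 and an adjusted p of 0.20. In set B Tyrobp stood at 20.5, 13.6 and 9.07 CPM in controls and at 19.8, 16.001, 28.7, 15.98, 19.6 and 19.2 CPM in DKO, a fold change of 1.38. Lyz2 in set C stood at 28.9, 49.4, 11.99, 33.1 and 25.1 CPM in controls and at 22.2, 8.57, 17.3 and 21.3 CPM in DKO (fold change 0.609, adjusted p = 0.20).

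The difference between the sets in the DKO effect, set C less set B, was -1.01 ± 0.35 (SE, log2) for Tyrobp (unadjusted p = 0.0081, adjusted p = 0.11) and -1.07 ± 0.46 for Lyz2 (adjusted p = 0.18), and 0 of 10 members passed, where 1.3% of all genes did (22.1% at an unadjusted p under 0.05, with 2 members). Without Flcn/Tfe3 control replicate 6, Lyz2 was the only member called, in a fit that called 1690 of 12569 genes, so this is no result about the members. Other blood cell genes moved in set C in the same libraries. All 4 neutrophil genes tested (S100a8, S100a9, Ngp and Camp) were called lower in DKO of set C, with log2 fold changes of -1.93 to -3.61. So were 4 of 5 red blood cell genes, 2 of 3 monocyte genes (Plac8 and Hp) and Fcgr2b, an inhibitory Fc receptor. In set B none of these was called, which is not by itself a difference between the sets. In edgeR's contrast of set C less set B, 0 of the 4 neutrophil genes were called (adjusted p 0.088 to 0.24). Hp (0.24) and Fcgr2b (0.060) were not called either, while Plac8, Hbb-bs and Hbb-bt were (0.043 each). Calls were not limited to blood cell genes. Of 8 kidney epithelium genes tested, 1 was called higher (Umod, log2 fold change 0.78) and 1 lower (-0.57) in DKO of set C, and 0 in set B. The contrast of set C less set B called 0 of the 8. Summed over the 9 neutrophil genes the level was 17.3 to 173 CPM in controls and 16.6 to 27.7 CPM in DKO of set C. The reads on no gene were 8.78 to 18.4% in controls and 7.92 to 10.5% in DKO of set C. The part of blood content or read quality in the values of Tyrobp and Lyz2 was not tested.

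**Figure D3:**
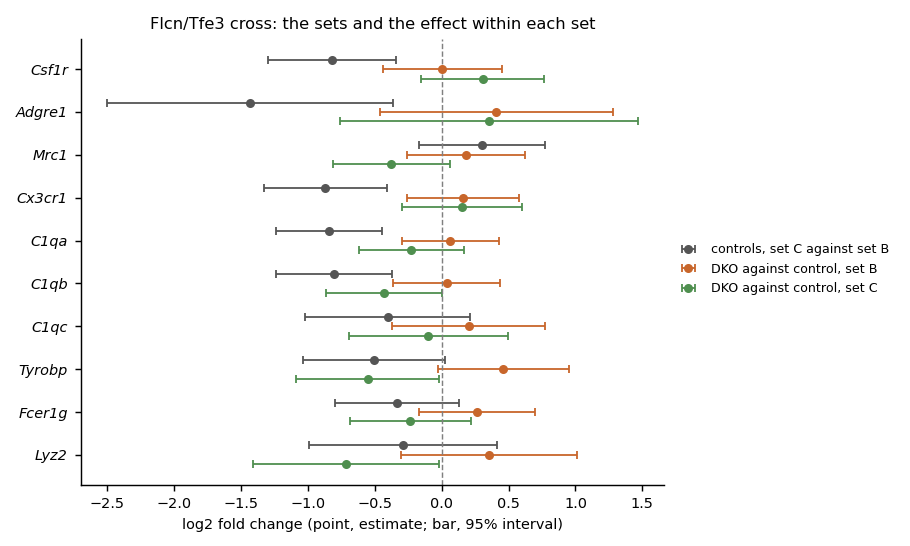
Log2 fold change (horizontal axis) of each gene between controls of set C and set B (grey) and between DKO and control within set B (orange) and set C (green), with 95% intervals from 1 edgeR fit. The grey points lie below 0 for all members but Mrc1, with 4 called, and the orange and green points lie on opposite sides of 0 for 7 of the 10 genes (Mrc1, C1qa, C1qb, C1qc, Tyrobp, Fcer1g and Lyz2).

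In set A the 3 libraries with few reads on no gene held 158 to 172 CPM summed over the members, and the other 14 held 173 to 267 CPM with a median of 221. All 3 were controls, 2 of 5 in the Flcn cross and 1 of 3 in the Flcn/Tfeb cross. That rests on the limit of 12%. A limit between 13.3 and 16.5% would also have taken in Flcn KO replicates 5 and 2, whose members summed to 208 and 217 CPM. Tyrobp was at 6.46 to 8.91 CPM in the 3 and at 9.39 to 25.9 CPM in the other 14, which did not overlap, for 1 of the 10 members, a share read against 6.69% of 13728 genes in that direction and so no result about the members, and Csf1r at 31.3 to 45.5 against 40.7 to 63.8 CPM, which did. C1qc did not follow, at 10.1 to 12.4 CPM in the 3 and 6.27 to 16.4 CPM in the 14. Without Flcn control replicates 4 and 5, which leaves 3 controls, the Flcn KO effect on Csf1r, Mrc1, C1qa and Tyrobp was below 0 in place of above 0, and no member was called.

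**Figure D4:**
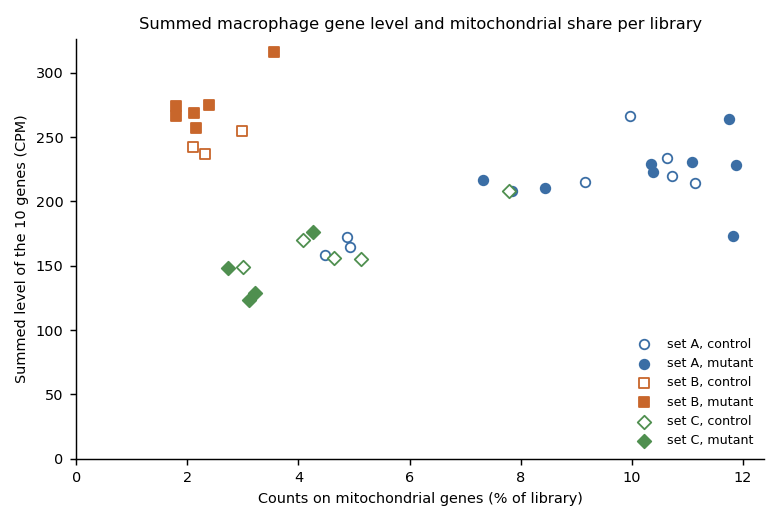
Summed level of the 10 genes in CPM (vertical axis, linear from 0) against the share of counts on mitochondrial genes (horizontal axis) in each library; colours and shapes are the sets, open symbols controls, filled symbols mutants. Set B lies at 237 to 316 CPM at low mitochondrial shares, and the 3 set A libraries with the lowest shares have the lowest sums of set A (158 to 172 CPM).

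Within group and set most pairs of members were weakly correlated. Over 45 pairs of members and 35 libraries the median Pearson r of log2 CPM was 0.16, and 35 pairs were above 0. The highest were Tyrobp with Lyz2 (r = 0.64), Mrc1 with Tyrobp (0.60), Csf1r with Cx3cr1 (0.57) and C1qa with C1qb (0.48). Csf1r and Lyz2 had r = -0.06 and Cx3cr1 and Lyz2 r = 0.00. C1qc stood apart even from its partner chains, with r = 0.16 to C1qb and -0.17 to C1qa. These correlations are a description over libraries that share depth and scaling, and no test was made of them.

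**Figure D5:**
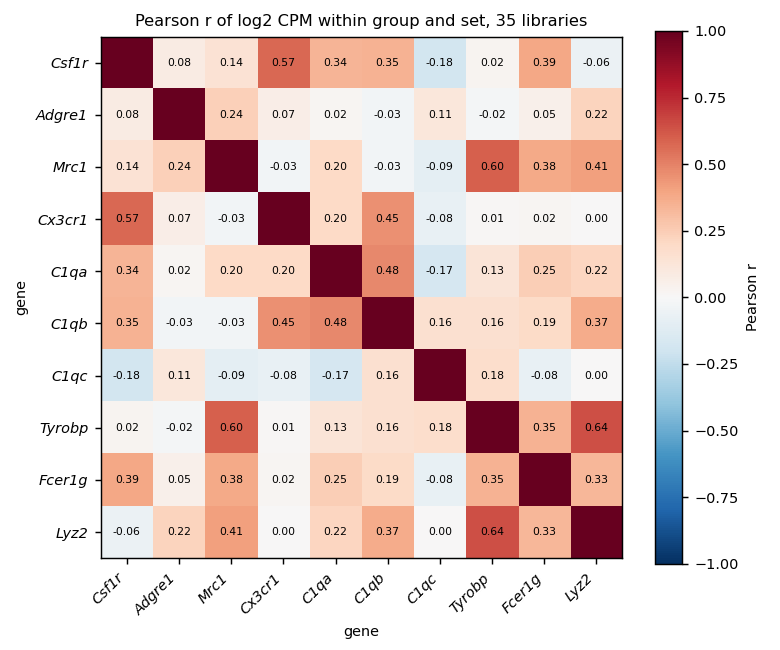
Pearson r between each pair of genes (both axes) over 35 libraries, on log2 CPM less the mean of each group within each set; red is above 0 and blue below. The pairs Tyrobp with Lyz2 (0.64) and Csf1r with Cx3cr1 (0.57) are high, while pairs across these, such as Csf1r with Lyz2 (-0.06), are near 0.

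The genes most like the mean pattern of the members, of 13718 others compared, were mt-Nd4 (r = 0.72, rho = 0.75), Atp9b (0.72, 0.73), Malat1 (0.71, 0.75), Pcdhgc5 (0.71, 0.63), Ms4a6c (0.71, 0.67), Meg3 (0.70, 0.77), Col16a1 (0.70, 0.65), CT025619.1 (0.69, 0.72), mt-Nd5 (0.69, 0.68) and Srek1 (0.68, 0.75). Ms4a6c is the only one of them in the list of other macrophage genes. mt-Nd4 and mt-Nd5 are mitochondrial, and Malat1 and Meg3 are long noncoding RNAs that stay largely in the nucleus. The median r over all genes was near 0 and the 99th percentile 0.56, against a median of 0.14 over 20 other macrophage genes, 0.45 over 5 genes of resident macrophages (the highest Folr2, at 0.67) and 0.33 over 5 red blood cell genes. In set A alone 0 of these 10 were among the first 10, and Ms4a6c ranked 12.

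The wider lists held no call in a cross, save for Umod of the kidney epithelium. Of 22 other macrophage genes, 14 were tested with Flcn KO (median log2 fold change 0.08), 15 with Flcn/Tfeb DKO (0.23) and 17 with Flcn/Tfe3 DKO (-0.03), and 0 were called by edgeR, with 1 higher and 2 lower with Flcn KO, 1 lower with Flcn/Tfeb DKO and 0 with Flcn/Tfe3 DKO at an unadjusted p under 0.05. In the Flcn cross the higher one was Spi1, which encodes PU.1, with 5.89 ± 2.87 CPM in controls and 12.1 ± 2.46 in KO (log2 fold change 1.06 ± 0.28 SE, adjusted p = 0.15), and the transcription factor gene Maf, which kidney epithelium also expresses, was among those below 0 (-0.42 ± 0.14, adjusted p = 0.34). Both were chosen for mention after their values were seen. Summed over the 22 genes the level was 865 to 982 CPM in Flcn controls and 649 to 828 CPM in KO, which did not overlap. Of single genes in this cross, 2.38% did not overlap on per-cross scaling. Maf alone had a median of 475 CPM over the 35 libraries. The 4 MHC class II genes tested in the Flcn cross had a median of -0.42, none called. The neutrophil genes S100a8 and S100a9, chosen for mention after their values were seen, had log2 fold changes of 0.92 and 0.88 with Flcn KO, 0.9988 and 1.15 with Flcn/Tfeb DKO and -0.98 and -1.05 with Flcn/Tfe3 DKO, none called. In the Flcn/Tfeb cross, where C1qa had its fold change of 1.64, the 3 neutrophil genes tested were at 0.9988 to 1.87 (2 at an unadjusted p under 0.05 in edgeR). The 9 neutrophil genes summed to 36.8 to 155 CPM in controls and 147 to 378 CPM in DKO, which overlapped. The 5 monocyte genes summed to 66.1 to 86.4 CPM in controls and 95.2 to 184 CPM in DKO, which did not overlap. Of single genes in this cross, 5.65% did not overlap on per-cross scaling. Among the monocyte genes 2 were tested, 0 at an unadjusted p under 0.05. The part of neutrophil and monocyte genes in the C1qa values was not tested. All 5 red blood cell genes were below 0 in the Flcn/Tfe3 cross (-0.61 to -0.89), none called. Umod, the urinary protein uromodulin of the thick ascending limb, was called higher in Flcn KO (1.0005 ± 0.12 SE, adjusted p = 0.00040) and in Flcn/Tfe3 DKO (0.71 ± 0.10, adjusted p = 0.00022).

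Several defining genes of lymphocytes and dendritic cells were at or near 0, but not all of their lists. Cd3e (0 to 4 counts per library), Cd3g (0 to 2), Cd79a (0 to 3), Nkg7 (0 to 2), Flt3 (0 to 2), Xcr1 (0 to 6) and Cd209a (0 to 1) were low in all libraries, and Fcer1a of mast cells was at 0 in 33 of 35. Timd4, a marker of long-lived resident macrophages, was at 0 in 21 of 35 libraries with at most 5 counts, where a count of 0 allows up to 3. Zbtb46 of the dendritic cell list was at 16.2 to 39.6 CPM and Cd79b of the lymphocyte list at 0.964 to 11.01 CPM in every library. The 5 dendritic cell genes together held 16.2 to 40.2 CPM per library, nearly all of it Zbtb46, the 7 lymphocyte and NK cell genes 1.98 to 19.4 CPM and the 9 neutrophil genes 16.6 to 378 CPM per library. The part of neutrophils and other blood cells in the levels of Lyz2, Tyrobp and Fcer1g was not tested.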

How the data were processed

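RNA of whole kidneys was sequenced by the authors from the 3′ end (QuantSeq), trimmed, aligned with STAR to mm10 and counted per gene with HTSeq-count; for trimming the submitters' processing notes name Trim Galore and the study's methods bbduk, so which was used is unsure. The deposited values are raw counts per gene. Tallies that name no gene were left out. The members and gene lists were chosen with earlier results of these data known. Per cross, genes passing filterByExpr were scaled by TMM and tested in edgeR 4.0.16 (R 4.3.3, glmQLFit and glmQLFTest), with the set as a term in the Flcn/Tfe3 cross and Benjamini-Hochberg adjustment over all genes, called at an adjusted p under 0.05. Intervals are 95%. Levels are CPM with TMM over all 35 libraries; log2 CPM has a prior count of 2. Genes named by rule are the members, list genes called, ligands, cell type genes at 0 in most libraries, and the 10 genes most like the members; Spi1, Maf, Fcgr3, Folr2, Trem2, S100a8, S100a9, Zbtb46 and Cd79b were chosen after their values were seen; 1 list gene is not reported here. DESeq2 1.42.0, RLE factors, library totals, other filters, a replicate block and leaving out libraries were alternatives. Each kidney is called a biological replicate in the labels; no 2 libraries of a group agreed within sampling noise. Scripts were tested on simulated data. Counting intervals and floors cover counting error only.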

Additional observations from a re-analysis of the deposited data

Results flagged for a closer look

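Among 66 checks of a gene or the sum within a group and set, 5 checks, in 4 libraries, found a library far from the others of its group by Dixon's criterion, which chance meets in about 1 of 20 groups. Cx3cr1 was 47.2 CPM in Flcn control replicate 1, where the other Flcn controls held 27.7 to 30.2. C1qa was 37.29 CPM in Flcn/Tfe3 DKO replicate 4 of set B (others 24.4 to 29.0) and 15.5 CPM in Flcn/Tfe3 DKO replicate 10 of set C (others 12.05 to 12.47). Tyrobp was 28.7 CPM in Flcn/Tfe3 DKO replicate 3 of set B (others 15.98 to 19.8). The sum of the 10 members was 316 CPM in Flcn/Tfe3 DKO replicate 4 of set B. The DKO effect differed between set C and set B, tested as an interaction in edgeR, for Plac8 (log2 difference -2.39), Hbb-bs (-1.74) and Hbb-bt (-1.68). Their adjusted p was 0.043 in each case. This contrast called 162 genes in all and 0 with library totals, with the mitochondrial share as covariate, or without any one of several single libraries (Flcn/Tfe3 control replicates 1, 3, 4, 5 or 8 and DKO replicates 3, 5, 6, 7, 8, 9 or 10), so none of the 3 calls held there.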

How the results depend on the processing

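No member was called in a cross or between crosses under the alternatives. Adjusted p values were kept for 624 fits of a member, which cover all members tested within a cross but C1qa alone between crosses. The lowest of these in edgeR or DESeq2 was 0.136, for C1qa in Flcn/Tfe3 less Flcn/Tfeb without Flcn/Tfeb control replicate 1. Genes called in the Flcn cross (62) numbered 100 at an adjusted p under 0.1, 113 with DESeq2, 95 with no filter and 147 with the mitochondrial share as covariate. Those in the Flcn/Tfe3 cross (48) numbered 96 with DESeq2, 8 in set B alone, 569 in set C alone, 29 with no set term and 28 with the covariate. Comparing crosses, DESeq2 called 1 (Flcn/Tfe3 less Flcn), 13 (Flcn/Tfe3 less Flcn/Tfeb) and 8 (Flcn/Tfeb less Flcn), the covariate 0 for the second and 5 for the last, and the last had 0 without Flcn control replicates 4 and 5. For controls of set C less set B the covariate left 142 of 1603 genes and 2 of 4 members, while DESeq2 called 5 members and library totals 6. For the effect in set C less set B (162) library totals gave 0, DESeq2 785, no filter 398 and the covariate 0.

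With the replicate block, 2 genes were called in the Flcn/Tfe3 cross, and 0 in Flcn/Tfe3 less Flcn/Tfeb and in Flcn/Tfeb less Flcn; log2 fold changes turned for Tyrobp (0.18) and Fcer1g (-0.012) in the Flcn/Tfe3 cross and Mrc1 (0.12) in the Flcn/Tfeb cross. Deviations of same-numbered libraries correlated at -0.17 to 0.24, -0.12 to 0.16 and -0.32 to 0.31 in the 3 crosses, with 1 pair over 0.1 in each. Of these libraries 0, 1 and 1 matched best with their own number, so these replicate numbers do not pair the samples. In the Flcn/Tfe3 cross some of the numbers join a control of set C to a DKO of set B, and the separate numbering within set C was not checked.

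Other log2 fold changes that turned, none called, were as follows. In the Flcn/Tfe3 cross set B alone gave Mrc1 0.19, C1qa 0.071, C1qb 0.041, Tyrobp 0.46 and Lyz2 0.36; set C alone gave C1qc -0.13 and Fcer1g -0.27; no set term gave C1qa 0.16, C1qb 0.081, Tyrobp 0.31 and Lyz2 0.12; library totals gave C1qa 0.0054 and Tyrobp 0.062; no filter gave Tyrobp 0.0081; the covariate gave C1qa 0.025, Tyrobp 0.089 and Lyz2 0.13. In the Flcn/Tfeb cross the covariate gave Csf1r -0.28, Cx3cr1 -0.15, Tyrobp -0.53 and Lyz2 -0.079, and library totals Cx3cr1 -0.068 and C1qb -0.025. In the Flcn cross library totals gave Csf1r -0.022 and C1qa -0.025, the covariate Csf1r -0.0051, and leaving out control replicates 4 and 5 Csf1r -0.12, Mrc1 -0.024, C1qa -0.16 and Tyrobp -0.29. The cause of these changes was not tested. The covariate, the fit per set and leaving out both Flcn controls were chosen after seeing the data.

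Leaving out 1 library at a time, genes called ran from 37 to 58 (Flcn), 0 to 1 (Flcn/Tfeb), 30 to 53 (Flcn/Tfe3), 1 to 82 (Flcn/Tfe3 less Flcn/Tfeb), 0 to 3 (Flcn/Tfeb less Flcn), 674 to 2383 (controls of set C less set B, with 1 to 5 members) and 0 to 1690 (effect in set C less set B, with 0 to 1 members). Log2 fold changes that turned ran from -0.047 to 0.14 (Csf1r), -0.10 to 0.12 (C1qa), -0.091 to 0.21 (Tyrobp) and -0.25 to 0.070 (Lyz2) in the Flcn cross; from -0.10 to 0.32 (Csf1r), -0.39 to 0.14 (Mrc1), -0.045 to 0.21 (Cx3cr1), -0.0042 to 0.25 (C1qb) and -0.24 to 0.41 (Tyrobp) in the Flcn/Tfeb cross; and from -0.083 to 0.15 (C1qc), -0.19 to 0.053 (Tyrobp) and -0.075 to 0.098 (Fcer1g) in the Flcn/Tfe3 cross. Adgre1 could not be tested in set C alone. Members had 1 to 287 counts per library, and their spread within group and set was 1.27 to 2.95 times that of counting alone, so depth was not the only limit on the size of difference that could be called.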
